A study of Mus musculus with 3 samples.

Results

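The interleukin-1 (IL-1) family genes described here are 8 genes chosen by their names in the GENCODE M21 annotation: the cytokines Il1a, Il1b and Il18, their secreted antagonists Il1rn and Il18bp, and the receptor genes Il1r1, Il1r2 and Il1rap. All 8 were found among the 55536 annotated genes, of which 22028 are protein-coding. Their RNA was measured by ribosome-depleted total RNA sequencing of the chromatin fraction, the RNA still held with chromatin in the nucleus, of bone-marrow-derived macrophages from C57BL/6J mice. Every library belongs to 1 group: the cells met 100 ng/ml Lipid A (the lipid anchor of bacterial endotoxin, sensed through TLR4) for 12 h, were kept without it for 12 h, and received 100 ng/ml again for 25 min. The 3 libraries, biological replicates 1, 2 and 3, started from 1 µg, 250 ng and 500 ng of RNA. The labels list the same donor identifier for all of them and do not say that separate animals were used, and the SDs and p-values below therefore measure variation among libraries, which may be technical. No unstimulated or singly stimulated cells were analysed here, so the values are levels in this state and not responses to it.

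IL-1α and IL-1β signal through the receptor IL-1R1 together with its accessory chain IL-1RAP, and the adapter MyD88 and IRAK kinases carry the signal on. The antagonist encoded by Il1rn occupies IL-1R1 without starting a signal, and IL-1R2 is a decoy receptor that binds the cytokine without signalling. IL-18 uses a separate receptor pair, and IL-18-binding protein captures it outside the cell. IL-1β and IL-18 are made as inactive precursors that caspase-1 cleaves in inflammasomes. Il1b is known in macrophages as a gene that Toll-like receptor signals switch on strongly, whereas the Il18 precursor is known to be present in resting cells.

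The depth over annotated genes ran from 13502401 to 17848798 expected counts per library, replicate 1 being the shallowest. The limit set by a count of 0, 3 counts, came to 0.222 CPM (counts scaled to the library total) in that library and 0.168 in the others, for counting error only. A ribosomal RNA locus held 11.1%, 31.8% and 24.8% of the counts in replicates 1, 2 and 3. Levels are in TPM, abundance per transcript length scaled to the same total in each library, of which protein-coding genes held 25.4% to 29.8%, and each mean is given with its SD over the 3 libraries. Among all protein-coding genes, 44.0% had 1 TPM or more in all 3 libraries. Of the macrophage markers checked, 8 of 8 did, as did 0 of 10 neutrophil, 0 of 6 fibroblast, 0 of 4 T and NK cell and 0 of 4 B cell markers. Of the 4 endothelial markers, Kdr and Pecam1 reached that level in all 3, while Cdh5 averaged 0.0733 TPM and Cldn5 had no counts.

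By TPM, the largest share of Il1b was assigned to a transcript that keeps an intron, and that of Il1rn to a short transcript with its own last exon, while by expected counts protein-coding transcripts led in both genes. The bases at which these transcripts part from the protein-coding ones are shown because the levels below depend on how reads were divided there. They were read from the GENCODE M21 transcript sequences (GRCm38), run 5′ to 3′ along the transcript, and show the last 15 bases of the shared exon in lower case followed by the next 15 bases in capitals. In Il1b (chromosome 2, 129364570 to 129371139, minus strand) exon 2 ends at base 129370284, and the protein-coding transcript Il1b-201 goes on at 129369751 after splicing out 532 bases. The transcript Il1b-203 goes on at 129370283 and keeps all 532. In Il1rn (chromosome 2, 24336853 to 24351494, plus strand) exon 1 of Il1rn-201 ends at 24345571 and goes on at 24347466, whereas Il1rn-206 goes on at 24345943, in an exon that ends at 24346354 and of which all 412 bases lie inside that intron.
Il1b-201: gccaccttttgacagTGATGAGAATGACCT
Il1b-203: gccaccttttgacagGTCAGTGGGTACTGG
Il1rn-201: gatgcaagccttcagAATCTGGGATACTAA
Il1rn-206: gatgcaagccttcagACACCTAGATGTTCA
After the shared bases, Il1b-203 goes straight on with the GT that opens the intron.

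Among the 3 cytokine genes, Il1b stood above Il1a and Il18 in every library. Il1b had 114.4, 65.1 and 138.8 TPM in replicates 1, 2 and 3, from 1014, 661 and 1664 expected counts, a mean of 106 ± 37.5 TPM (SD, n = 3). It ranked 445 among the 22028 protein-coding genes by mean TPM. Replicate 2 was the low library and replicate 3 the high one, 2.13-fold apart. In bulk libraries, fewer cells that transcribe a gene and less RNA per cell cannot be told apart.

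Il1a (chromosome 2, 129299610 to 129309972, minus strand) had 31.3, 12.4 and 25.3 TPM from 737, 345 and 756 counts, a mean of 23.0 ± 9.62 TPM. It lies 54597 bases from Il1b on the same strand and was also lowest in replicate 2. Il18 (chromosome 9, 50554827 to 50581840, plus strand) had 29.7, 15.2 and 16.2 TPM, a mean of 20.4 ± 8.08. That mean rests on 208, 118 and 136 counts, and replicate 1 stood above the other libraries.

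Of the antagonists, Il18bp was the higher. Il18bp (chromosome 7, 102014885 to 102018690, minus strand) had 79.35, 57.7 and 40.8 TPM from 1889, 1601 and 1306 counts, a mean of 59.3 ± 19.3 TPM, and ranked 997 among protein-coding genes. It was second to Il1b among the 8 genes and exceeded its ligand's gene Il18 in each library. Il1rn had 9.37, 2.93 and 7.45 TPM from 132, 67 and 147 counts, a mean of 6.58 ± 3.31 TPM. Replicate 2 was low here too, 3.20-fold under replicate 1.

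The receptor genes were at the bottom of the range. Il1rap, the shared accessory chain (chromosome 16, 26581704 to 26730117, plus strand), had 1.60, 1.16 and 0.80 TPM from 67, 54 and 43 counts, a mean of 1.19 ± 0.401. Il1r1, the signalling receptor (chromosome 1, 40225080 to 40317257, plus strand), had 0.15, 0.11 and 0.14 TPM from 9, 10 and 11 counts, with exact Poisson 95% intervals of 4.12 to 17.1, 4.80 to 18.4 and 5.49 to 19.7 counts. Il1r2, the decoy receptor (chromosome 1, 40074079 to 40125231, plus strand), had 0.55, 0.20 and 0.43 TPM from only 2, 2 and 1 counts. Each lies below the limit of 3 counts, too few to fix its level. No fold is given for Il1r2. Its mean TPM stood above that of Il1r1 although its counts were fewer, and the transcripts that took its counts were 366, 760 and 1054 bases long, against 4832 and 5819 for Il1r1. The order of this pair was not resolved at this depth.

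Detection, meaning 1 TPM or more in all 3 libraries, held for 5 of the 8 genes (Il1b, Il18bp, Il1a, Il18 and Il1rn) and for 44.0% of protein-coding genes. Il1rap passed in replicates 1 and 2 and missed in replicate 3. The median of the 8 mean levels was 13.5 TPM, and over all protein-coding genes it was 0.552 TPM. Il1b alone made up 48.5% ± 10.3 of the summed TPM of the 8 genes and Il18bp 28.3% ± 9.84.

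**Figure D1:**
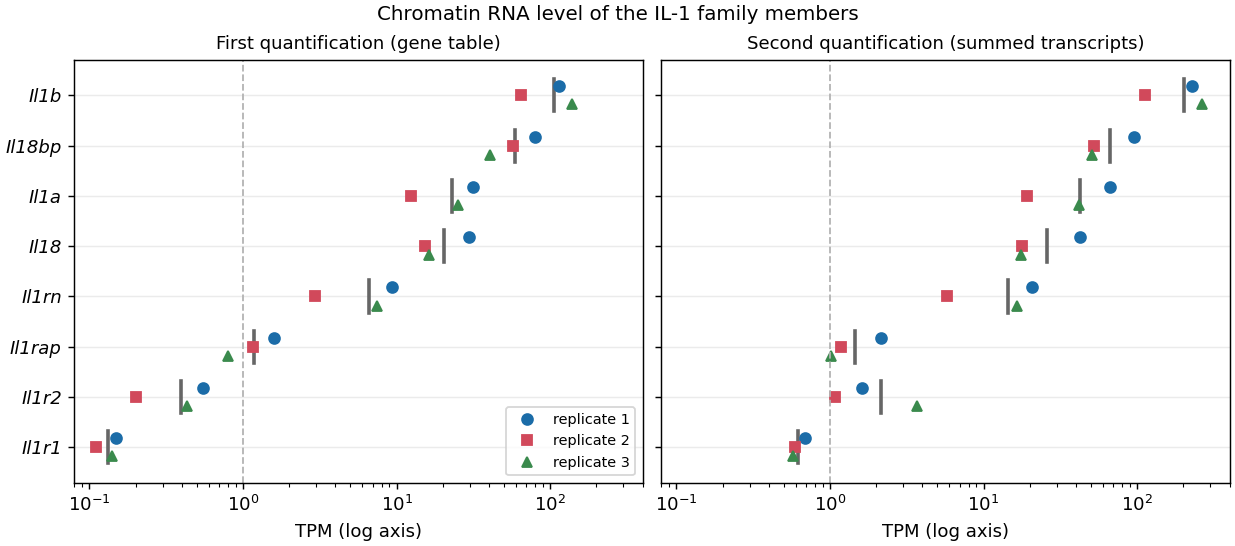
TPM of each gene (log axis) in the gene table (left) and summed over the transcripts of the second quantification (right). Points are the 3 libraries, grey bars their means and the dashed line a TPM of 1. In the gene table Il1b lies between 65.1 and 138.8 TPM and Il1r1 between 0.11 and 0.15 TPM.

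Within each library, where depth and composition are shared, levels were compared between genes for 7 pairs on the log2(TPM + 1) scale, on which differences of low genes are understated. Il1b exceeded Il1a by 1.84, 2.30 and 2.41 in replicates 1, 2 and 3, a mean difference of 2.18 ± 0.30, and the TPM ratio of Il1b to Il1a was 4.79 ± 0.989. Il1b exceeded the antagonist gene Il1rn by 3.87 ± 0.34, and Il1a exceeded Il1rn by 1.68 ± 0.08. The last was the steadiest of the 7 differences, with library values of 1.64, 1.77 and 1.64.

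In the IL-18 arm the order of cytokine and inhibitor was the opposite of that in the IL-1 arm. Il18bp exceeded Il18 by 1.39, 1.85 and 1.28, a mean of 1.51 ± 0.30 and a TPM ratio of 2.99 ± 0.690. Il1b exceeded Il18 by 2.32 ± 0.61, most in replicate 3 at 3.02. Il1rap exceeded Il1r1 by 0.93 ± 0.26 and Il1r2 exceeded Il1r1 by 0.29 ± 0.16, the last on the few counts given above. All 7 differences were positive in 3 of 3 libraries and larger than their SD. The exact two-sided sign-flip test over 3 libraries gave p = 0.25 for each, the smallest p that it can give, and Benjamini-Hochberg adjustment over the 7 pairs left it at 0.25.

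By mean TPM the order was Il1b, Il18bp, Il1a, Il18, Il1rn, Il1rap, Il1r2 and Il1r1. Il1b and Il18bp differed by 0.81 ± 0.82 and Il1a and Il18 by 0.14 ± 0.45, so neither of these neighbours differed beyond the spread between libraries. In the second quantification they did, Il1b exceeding Il18bp by 1.56 ± 0.69 and Il1a exceeding Il18 by 0.64 ± 0.55, each in 3 of 3 libraries. Il18bp and Il1a, and Il18 and Il1rn, differed beyond that spread in both quantifications, and Il1rn and Il1rap did in the first. In the first, Il1rap exceeded Il1r2 by 0.64 ± 0.27 and Il1r2 exceeded Il1r1 by 0.29 ± 0.16, both beyond that spread. The place of Il1r2 was still not resolved on its 1 or 2 counts per library. In the second quantification Il1r2 averaged above Il1rap but was higher in 1 of 3 libraries, with a difference of 0.30 ± 0.80.

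The levels of Il1b and Il1rn depended on which transcripts were counted. For Il1b, 62.2%, 70.4% and 57.4% of TPM in replicates 1, 2 and 3 were assigned to Il1b-203 (mean 63.4% ± 6.57), annotated as retained_intron, and 33.1% ± 5.11 to Il1b-201, which has 269 codons and encodes the IL-1β precursor. Il1b-203 is 689 bases long, of which 532 (77.2%) are the intron kept. By expected counts, which are not divided by length, its share was 43.4% ± 5.89, from 458, 319 and 614 counts, and Il1b-201 led with 55.7% ± 5.81. Among 4726 protein-coding genes with both transcript kinds and 5 TPM or more in all 3 libraries, 33.4% had 50% or more of their TPM in retained_intron transcripts in every library, and the median share was 46.0%. Il1b passed that mark in every library, and its share was above that of 78.2% of these genes. In the second quantification its share was 38.9% ± 3.49, under that table's median of 44.9%, and 38.5% ± 3.81 went to the processed transcript Il1b-202, which had 3.58% ± 3.55 in the first. The protein-coding share was lower in the second quantification, 22.6% ± 0.804, than in the first, so the tables share a majority of Il1b TPM outside the protein-coding transcript and differ in which transcript holds it. By counts the mean share outside it was no majority, 44.3% ± 5.81 in the first and 49.3% ± 2.38 in the second. The second gave 50.1%, 51.1% and 46.6% in replicates 1, 2 and 3.

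Il1rn is known to encode a secreted antagonist from a downstream start and intracellular forms from an upstream start. The processed transcript Il1rn-206 took 48.3% ± 8.62 of its TPM but 16.8% ± 6.20 of its counts, from 30.1, 7 and 25.2 counts, below the 46.5% of Il1rn-204 and the 31.1% of Il1rn-201. Of the protein-coding transcripts, Il1rn-204, from the upstream start at 24336853 with 159 codons, took 25.6% ± 10.3 of TPM, and Il1rn-201, from the downstream start with 178 codons, took 20.9% ± 3.79. The pair share 155 codons. All transcripts from the upstream start together held 28.2% ± 12.8 of TPM and 50.9% ± 14.5 of counts, and replicate 2, with 67 counts for the gene, gave the highest share by both measures. In the second quantification the upstream start held 27.97% ± 8.81 of TPM, with replicate 2 the lowest at 21.3%, and 30.5% ± 4.86 of counts, with replicate 2 the highest at 33.6%.

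**Figure D2:**
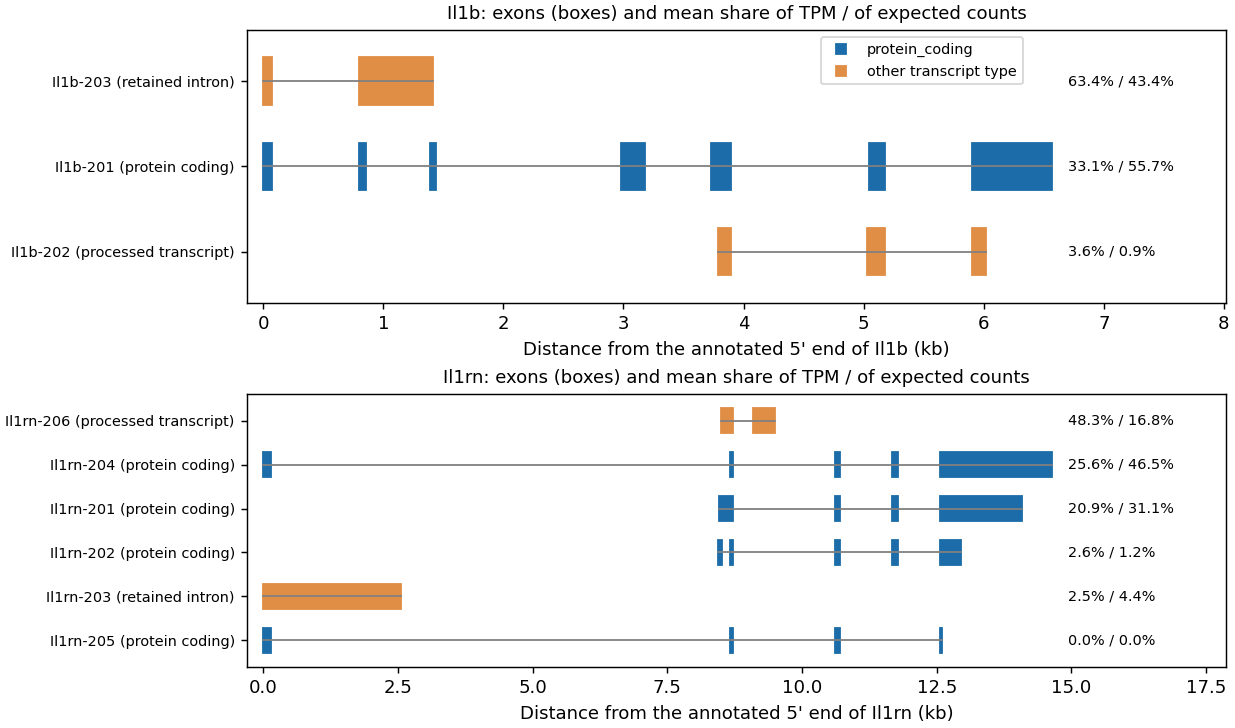
Exons of each Il1b (top) and Il1rn (bottom) transcript as boxes, against the distance in kb from the gene's annotated 5′ end, with the mean share of TPM and of expected counts over the 3 libraries at the right. Il1b-203 fills the second intron of Il1b-201 and holds 63.4% of TPM and 43.4% of counts.

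With protein_coding transcripts alone, Il1b had 35.1, 19.3 and 54.0 TPM (mean 36.1 ± 17.4) and Il1rn 4.01, 1.63 and 3.67 TPM (mean 3.10 ± 1.29), while Il1a, Il18 and Il18bp were as before, since all of their annotated transcripts are protein-coding. Il18bp then had the highest mean, but its difference from Il1b, 0.764 ± 1.023, was smaller than its SD. The difference between Il1b and Il1a shrank to 0.16, 0.59 and 1.06 in replicates 1, 2 and 3, a mean of 0.61 ± 0.45, and the TPM ratio to 1.60 ± 0.508. The difference between Il1b and Il18 was 0.75 ± 0.81, no longer larger than its SD. That between Il1a and Il1rn grew to 2.51 ± 0.17. All 7 differences stayed positive in 3 of 3 libraries.

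**Figure D3:**
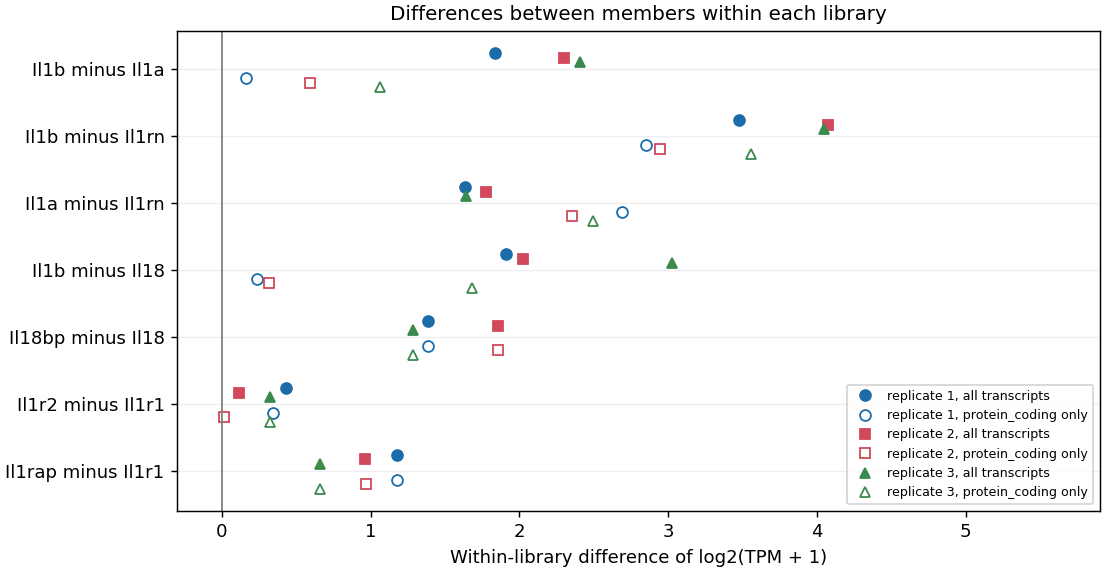
Within-library difference of log2(TPM + 1) for the 7 pairs, first-named gene minus second-named gene. Filled symbols use all transcripts and open symbols protein_coding transcripts only, 1 symbol per library, and the difference between Il1b and Il1a is 2.18 with all transcripts and 0.61 with protein_coding ones.

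The other genes with several transcripts varied in how firmly reads could be assigned. Il18bp was divided between Il18bp-203 (57.3% ± 6.67 of TPM, 193 codons) and Il18bp-202 (42.7% ± 6.67, 194 codons). Il18bp-203 is 1594 bases long and Il18bp-202 2596, and counts are not divided by length. By counts the order was the other way round in every library, 43.7% ± 6.59 for Il18bp-203 and 56.3% ± 6.59 for Il18bp-202. In the second quantification Il18bp-204, at 0 in the first, took 24.1% ± 7.24 of TPM. Il18-201 and Il18-202 have 192 codons each and differ by 12 exon bases, and the split between them was unstable. Il18-202 took 83.2%, 39.9% and 84.0% of TPM in replicates 1, 2 and 3 of the first quantification and 6.96% ± 12.1 in the second, where Il18-201 took 42.0% ± 8.09. Together they held 82.3% ± 2.24 in the first and 48.9% ± 6.34 in the second.

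Il1rap is known to give a membrane protein with an intracellular signalling domain and a shorter secreted protein. Il1rap-206, with 360 codons, took 55.4% ± 6.11 of TPM, and Il1rap-201, with 570 codons, took 38.1% ± 8.17. They share 350 codons. Il1rap-206 is 2306 bases long and Il1rap-201 4520, and counts are not divided by length. By counts the order of the means was reversed, 37.9% ± 5.95 for Il1rap-206 and 53.0% ± 9.32 for Il1rap-201. In replicate 2 it was not, at 44.7% for Il1rap-206 and 44.1% for Il1rap-201. In the second quantification Il1rap-206 led in mean TPM share, 49.9% ± 4.02 against 38.1% ± 10.2. It did not lead there in replicate 3, at 46.1% against 49.1%, so its lead in TPM did not hold in every library. Il1r1-202 took all of the gene's TPM in replicates 1 and 3 and none in replicate 2, where all 10 counts went to Il1r1-201.

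Transcripts of other genes overlap 7 of the 8 genes, all but Il1rn, and since the strand setting of the quantification is not given in the sources used here, reads of opposite strands cannot be assigned with certainty. Il1a is overlapped by Gm14023, a processed_transcript gene on the opposite strand (chromosome 2, 129297370 to 129307826). It had 64.8, 24.3 and 52.1 TPM, from 1359, 598 and 1382 counts, so it stood above Il1a in each library, and its TPM ratio to Il1a was 2.07, 1.95 and 2.06. Its exons cover 222 of the 1974 exon bases of Il1a, and 195 of the 1944 different 31-base words of Il1a also occur in it. The part of shared reads in these parallel levels was not tested. Il1bos, antisense to Il1b, shares 25 exon bases with Il1b. It had 4, 2 and 15 counts in the first quantification but 175, 342 and 247 in the second, so its level was not settled. Numa1, next to Il18bp on the opposite strand, had 69.9 ± 5.21 TPM and shares 80 exon bases with it.

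The second quantification gave more counts to most genes. Over 9401 genes with at least 20 counts, the median ratio of its counts to those of the first was 1.52, 1.73 and 1.61 in replicates 1, 2 and 3. Il1a stood above that, at 2.73, 2.79 and 2.58, each past the 90th percentile of these genes (2.42, 2.76 and 2.51). The ratio was 2.19 ± 0.321 for Il1b, 2.40 ± 0.40 for Il1rn, 2.13 ± 0.358 for Il18 and 1.37 ± 0.0884 for Il18bp. Il1r1 had 46, 77 and 87 counts in the second quantification, against 9, 10 and 11 in the first, the largest ratio among the genes outside Il1r2. Detection there held for 7 of the 8 genes and for 53.7% of protein-coding genes, with Il1r1 at 0.619 ± 0.0592 TPM the exception. Il1r2 passed with 2.14 ± 1.38 TPM from 9, 10 and 25 counts.

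Over all 3 libraries, the 5 detected genes varied more in TPM than the median detected gene. The coefficient of variation of TPM over the 3 libraries ran from 32.6% (Il18bp) to 50.2% (Il1rn) among the 5 genes detected, and its median over the 9689 detected protein-coding genes was 16.5%. On library-size-normalised counts (TMM scaling in edgeR), the biological coefficient of variation had a median of 0.262 over the 6 genes that passed the filter on low counts, all but Il1r1 and Il1r2, and 0.203 over the 14193 genes fitted. Values per gene ran from 0.208 (Il18bp) to 0.278 (Il1a) and are drawn toward the trend over all genes, so they understate the spread of single genes. Without replicate 2 the medians were 0.206 and 0.207, and without replicate 3 they were 0.239 and 0.240, so the gap needed replicates 2 and 3 together. Without replicate 1 they were 0.209 and 0.165. With no filter on low counts, the median was 0.272 over the 8 genes, Il1r1 and Il1r2 among them, and 0.279 over the 24206 genes then fitted. The gap closed there as the median over all genes rose from 0.203 to 0.279. In the second quantification the medians were 0.239 over 7 genes and 0.203 over all genes. With DESeq2 dispersions they were 0.254 and 0.218.

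In the first quantification Il1a, Il1b, Il1rn and Il18 were lowest in replicate 2. For Il18 this did not hold in the second, with 427, 298 and 248 counts and 42.8, 17.7 and 17.5 TPM. For Il1a, Il1b and Il1rn, the log2 CPM in replicate 2 lay 0.78, 0.69 and 0.74 under the gene's mean, and replicates 1 and 3 both lay above it. In replicates 1 and 3 Il1a lay 0.50 and 0.28 above its mean, Il1rn 0.42 and 0.32 and Il1b 0.12 and 0.58. Replicate 1 was the highest library for all of the 6 genes fitted except Il1b. For Il18, Il18bp and Il1rap it lay 0.62, 0.40 and 0.46 above the mean, and replicates 2 and 3 both lay below it.

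Replicate 2 had the smallest amount of starting RNA (250 ng) and the largest ribosomal share (31.8%), and replicate 1 the most RNA and the smallest ribosomal share. The fibroblast marker list summed to 0.01, 1.5 and 1.32 TPM in replicates 1, 2 and 3, with Lum at 0 counts in every library, and the endothelial list to 11.5, 3.8 and 3.99 TPM, of which Kdr made up 9.44, 1.80 and 2.99. The neutrophil list summed to 1.03, 0.56 and 0.51 TPM, with Ly6g, S100a8, Elane and Retnlg at 0 counts in every library. The part of these differences in the deviations was not tested.

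**Figure D4:**
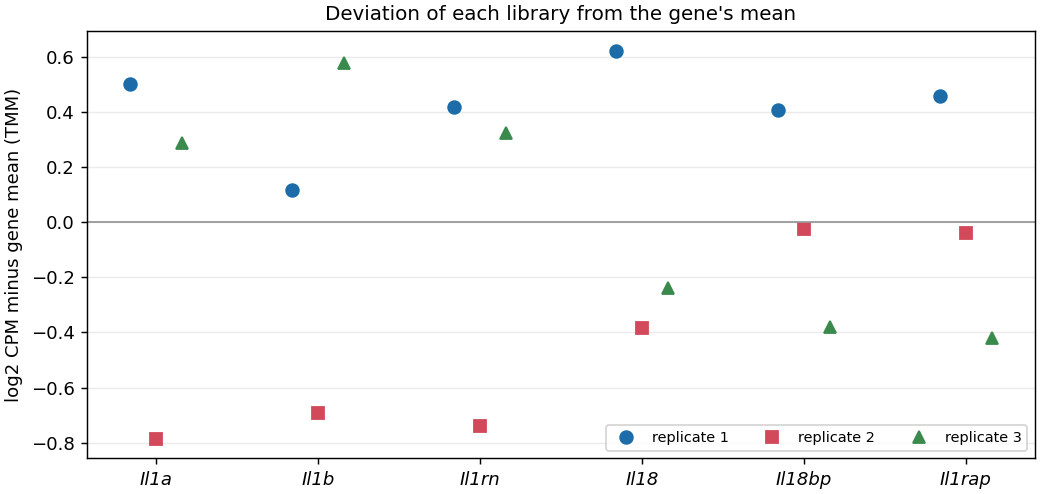
Deviation of each library's log2 CPM (TMM-normalised) from the gene's mean for the 6 genes that passed the filter on low counts, 1 point per library. Replicate 2 is the lowest point of Il1a, Il1b and Il1rn, between -0.69 and -0.78, and replicate 1 is the highest of every gene shown except Il1b.

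Among the 9647 detected protein-coding genes that passed the filter on low counts, the 5 whose profile over the 3 libraries lay closest to that of Il1b were Eid3, Clec4d (a C-type lectin receptor of myeloid cells), Efcab7, Ass1 (argininosuccinate synthase, an enzyme of arginine synthesis) and Sgk1 (a serum- and glucocorticoid-induced kinase). Their root mean square distances ran from 0.0355 for Eid3 to 0.0721 for Sgk1 on the log2 scale, and 9 genes lay within 0.1. Il1rn lay at 0.230 and Il1a at 0.284, nearer than Il18 at 0.583 and Il18bp at 0.694. With 3 libraries such a ranking describes these samples only.

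The start regions of Il1b, Il1a and Il1rn are shown because, of the 6 genes fitted, only these lay below their mean in replicate 2 alone. Il1rn starts at separate sites, of which only the upstream one is printed, while the downstream start held 71.8% ± 12.8 of TPM. The low value of Il1rn in replicate 2 lay more in downstream transcripts. Of these, Il1rn-206 had 5.27, 1.15 and 3.71 TPM in replicates 1, 2 and 3, and Il1rn-201 had 1.83, 0.53 and 1.88. The upstream Il1rn-204 had 1.73, 1.1 and 1.57 TPM. The regions are RefSeq windows (GRCm38.p6) of 250 bases before and 50 after a start, 5′ to 3′ along the gene, with matches to the motifs searched in capitals. All 8 genes had a window, 11 windows in all. The motifs, searched on both strands, were the kappa-B consensus, AP-1 (TGANTCA), the core of PU.1 (GAGGAA), the TATA box (TATAAA) and the core of C/EBP (TTGCNNAA). Among 32851 windows, 8.46% held the kappa-B motif, 7.81% AP-1, 28.3% PU.1, 13.6% TATA and 10.8% C/EBP. The windows lie at chr2:129371090-129371389 (minus strand) for Il1b, chr2:129309923-129310222 (minus strand) for Il1a and chr2:24336610-24336909 (plus strand) for the upstream start of Il1rn.
Il1b: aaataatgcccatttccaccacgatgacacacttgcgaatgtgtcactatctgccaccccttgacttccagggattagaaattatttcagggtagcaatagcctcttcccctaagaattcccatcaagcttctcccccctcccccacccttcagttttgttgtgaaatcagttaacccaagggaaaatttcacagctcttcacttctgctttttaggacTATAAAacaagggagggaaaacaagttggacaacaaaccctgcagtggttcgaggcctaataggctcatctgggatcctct
Il1a: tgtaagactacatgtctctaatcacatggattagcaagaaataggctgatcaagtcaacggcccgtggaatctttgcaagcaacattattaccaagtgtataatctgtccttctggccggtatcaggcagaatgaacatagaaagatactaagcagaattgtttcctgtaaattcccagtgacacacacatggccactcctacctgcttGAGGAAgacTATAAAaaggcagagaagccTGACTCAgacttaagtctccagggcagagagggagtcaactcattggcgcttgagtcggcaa
Il1rn, upstream start: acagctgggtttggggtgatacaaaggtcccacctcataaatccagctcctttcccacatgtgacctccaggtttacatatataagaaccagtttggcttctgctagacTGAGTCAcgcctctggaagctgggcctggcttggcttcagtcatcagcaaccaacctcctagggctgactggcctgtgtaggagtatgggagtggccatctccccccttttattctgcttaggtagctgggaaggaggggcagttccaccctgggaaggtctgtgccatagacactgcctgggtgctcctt
Il1b held a TATA match at -31 from the start and no other motif. Il1a held 3 matches, PU.1 at -41, TATA at -32 and AP-1 at -12, with no overlap between them. The upstream Il1rn window held an AP-1 match at -141. Of the other windows, Il18bp held a C/EBP match at -49, Il18 a TATA match at -175, the upstream Il1r1 window a C/EBP match at -133, the downstream Il1r1 window a kappa-B match at -232 and 1 of the downstream Il1rn windows a TATA match at 14 after the start. No motif was found in the other downstream Il1rn window or in those of Il1r2 and Il1rap. A match describes letters and is not a bound site, and motifs outside these windows were not searched.

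The rest of the family and the signalling genes around it were counted from lists. Of 13 other IL-1 family ligands and receptors, 0 were detected, against 44.0% of protein-coding genes. There were no counts in any library for 6 of them, among them Il18r1, the ligand-binding chain of the IL-18 receptor. Its partner Il18rap had 5, 5 and 6 counts (0.207 ± 0.122 TPM), and Il1rl1, the IL-33 receptor, had 0, 1 and 1 counts. Il1rl2 was the highest of the 13 in the first quantification, at 0.717 ± 0.116 TPM from 30, 33 and 43 counts. The median level of the 13 was 0.01 TPM. In the second quantification, where 53.7% of protein-coding genes passed, so did 4 of the 13, named here after their values were seen: Il18rap at 6.51 ± 1.11, Il18r1 at 4.49 ± 1.35, Il1f9 at 3.60 ± 0.333 and Il1rapl2 at 2.40 ± 0.530 TPM. The quantifications thus disagree on whether RNA of Il18r1 was present, and on the level of Il18rap. The same table also passed the neutrophil genes Cxcr2 (3.37 ± 1.13 TPM) and Mpo (1.26 ± 0.270 TPM), which had at most 1 count per library in the first. The fibroblast gene Col1a1 passed there too (1.26 ± 0.22 TPM), with 0, 32 and 42 counts in the first.

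Against 44.0% of protein-coding genes, all 15 genes listed for maturation and signalling passed, with a median level of 30.7 TPM. They are the inflammasome and pore genes Casp1, Casp4, Pycard, Nlrp3 and Gsdmd, and the receptor-proximal genes Myd88, Irak1, Irak2, Irak3, Irak4, Tollip, Traf6, Map3k7, Tab1 and Tab2. Gsdmd, whose product forms the pore through which IL-1β leaves the cell, was the highest at 174 ± 39.2 TPM. Nlrp3, the sensor of the best-known inflammasome, had 87.9 ± 18.8 TPM, and Casp1, the protease that matures IL-1β and IL-18, had 42.1 ± 7.98 TPM. Myd88, the adapter of the IL-1 and IL-18 receptors, had 24.1 ± 2.58 TPM, far above the receptor genes Il1r1 and Il1rap on the same scale.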

How the data were processed

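For each of the 3 libraries the authors deposited expected counts and TPM per gene and per transcript, under column names that RSEM uses per the file headers. They also deposited a second set of estimated counts and TPM per transcript, under column names that kallisto uses. The build is mm10 per the labels. Aligner and strandedness: not given in the sources used here. The 55536 genes of GENCODE M21 were kept from the 81881 rows of each gene table.

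Levels and shares were computed from the deposited TPM and expected counts, differences on log2(TPM + 1), a pseudocount of 1, with exact sign-flip tests over libraries. Expected counts were rounded for edgeR 4.0.16 (R 4.3.3; filterByExpr, TMM, intercept-only dispersions), tested on simulated data, and DESeq2 1.42.0 was an alternative. The detection limit was 1 TPM in all 3 libraries. Neighbours in the order were told apart where the difference had the same sign in every library and its mean exceeded its SD. Il1r2 met this rule against both neighbours in the first quantification, but its place was left unresolved on its few counts. Python 3.11.15, pandas 2.3.3 and scipy 1.17.1 were used. All 8 genes are named. Of the listed family and signalling genes, those with a mean TPM of at least 1 and the receptor genes Il18r1, Il18rap and Il1rl1 are named. Il1rl2, the highest of the family list, was added after its values were seen. Likeness to Il1b takes the 5 detected protein-coding genes at the smallest root mean square distance. The genes and lists were chosen with earlier results of these data known. Alternatives changed the quantification, transcripts counted, scaling, thresholds or libraries.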

Additional observations from a re-analysis of the deposited data

How the results depend on the processing

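No paired analysis was possible because all 3 libraries belong to 1 group. Mean levels moved by more than the spread between libraries as follows. In the second quantification Il1a had 42.4, Il1b 201.6, Il1rn 14.3, Il1r1 0.619 and Il1r2 2.14 TPM. With protein_coding transcripts only, Il1b had 36.1 and Il1rn 3.10 TPM. As posterior means, Il1r1 had 0.393 and Il1r2 1.04 TPM. With TPM scaled over protein-coding genes, every level rose by construction: Il1a 84.0, Il1b 392.7, Il1rn 24.0, Il18 73.7, Il18bp 215.3, Il1r1 0.491, Il1r2 1.43 and Il1rap 4.31 TPM. The median biological coefficient of variation was 0.239 in the second quantification and 0.206 to 0.239 with 1 library left out. Shares of gene TPM in the second quantification were 38.9% for Il1b-203, 6.96% for Il18-202, 41.6% for Il18bp-203 and 1.76% for Il1r1-202. By expected counts, an alternative chosen after seeing the data, they were 43.4% for Il1b-203, 16.8% for Il1rn-206, 43.7% for Il18bp-203 and 37.9% for Il1rap-206. Expected counts, unlike TPM, are not divided by transcript length. The cause of the other shifts was not tested. Of 189 alternative values, 158 counted as unchanged and 31 as moved, and none of the 7 within-library differences reversed. The 158 do not measure stability for every result. With a smallest sign-flip p of 0.25, no within-library difference could reach significance under any setting, and all counted as unchanged. Among them was Il1b minus Il1a, 2.18 with all transcripts and 0.61 with protein_coding ones. Changed numbers of detected genes and changed orders also counted as unchanged. Il1b had the highest mean level under every setting except protein_coding transcripts only. Il18 and Il1a changed places without replicate 3, and Il1r2 and Il1rap did in the second quantification. Between 4 and 7 of the 8 genes were detected. Depth limits Il1r1 and Il1r2, with at most 11 counts per library.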
